A study of Homo sapiens with 2 samples.

Results

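The primary granule protein genes studied here are 10 genes, MPO, PRTN3, CTSG, AZU1, RNASE2, SRGN, PRSS57, MS4A3, LYZ and CST7, out of 11619 genes listed in both libraries. They were chosen by their FPKM values in these same libraries together with their known place in the granules of promyelocytes, so the change of the 10 genes is a description and carries no test. RNA was taken from NB4 cells on day 3 after lentiviral infection, in 1 library of cells that carried an shRNA against CRNDE (sh-CRNDE, here also knockdown cells) and 1 library of cells that carried a control shRNA with no target (sh-Control, here also control cells). NB4 is a cell line from an acute promyelocytic leukemia (APL) that carries the PML/RARα fusion, and CRNDE is a long non-coding RNA. Cells of both groups had thus been infected with the same kind of vector, and both come from a single cell line. Which of the study's CRNDE shRNAs the sequenced cells carried is not given in the sources used here. The study ran this experiment to see which genes follow CRNDE inhibition in cells whose differentiation and growth it had measured. With 1 library per group there was no replicate of the sequencing, and no difference below could be set against the spread between samples. The study also reports qRT-PCR of representative changed genes in knockdown cells, and those measurements are not part of the data used here.

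Primary, or azurophil, granules are the first granules made in the neutrophil lineage, and promyelocytes are the stage that makes them. Their proteins are transcribed at this stage at a very high level, packed onto the proteoglycan serglycin in the Golgi, and kept in the granule until the mature cell meets a microbe. As the cell matures, transcription of most of these genes is shut off and the later granule types are filled. The transcripts of those genes thus mark the promyelocyte stage at which APL cells are arrested. LYZ, made at all granule stages, is not such a mark, and whether each of the other genes is one was not tested.

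CRNDE, the targeted gene, measured 5.92 FPKM in control and 1.85 FPKM in knockdown cells. FPKM, the number of fragments scaled by transcript length and by the mapped fragments of the library, allows levels of different genes to be compared, since it is per length, but it keeps no read counts, so the depth of the libraries is unknown and no counting interval could be given. In sh-CRNDE 139 genes and in sh-Control 182 genes are listed at 0. Of the promyelocyte and myeloblast markers, 7 of 9 were listed, and the 4 of them that were lower past 1.5-fold, MPO, CTSG, AZU1 and PRTN3, are themselves among the 10 genes. Of the others, CD33 was at 4.46 and 3.74 FPKM, CSF3R at 1.64 and 1.13 FPKM, and CD38 at 0.578 and 1.22 FPKM, in control and knockdown cells in that order. Of 6 erythroid markers 0 were listed. Of 7 monocyte and macrophage markers 3 were listed, with a summed level of 7.68 FPKM in control and 9.87 FPKM in knockdown cells, and CD14 was not among them. FCGR1A, at 3.17 and 6.60 FPKM, was higher past 1.5-fold, CD68, at 3.37 and 2.71 FPKM, and CSF1R, at 1.14 and 0.559 FPKM, did not pass it, and the part of these markers in the results was not tested. Of 9 mature neutrophil markers 5 were listed, with sums of 24.2 and 21.1 FPKM, mostly MMP9 at 17.8 and 13.9 FPKM. None of the 5 passed 1.5-fold, their median change was 0.05, and CXCR2, S100A9 and ITGAM had values above those of control cells. Of 8 T and NK cell markers 2 were listed, mostly NKG7, and of 5 B cell and 5 megakaryocyte markers 3 and 2, none above 4 FPKM. Of 6 epithelial and HEK-293T markers, EPCAM alone was listed, at 4.82 and 4.49 FPKM.

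Of the 10 genes, 8 were lower in sh-CRNDE past 1.5-fold and 0 were higher past it. The threshold of 1.5-fold is that of the study, and was applied to the change, which is log2(FPKM + 1) of the knockdown library less that of the control library, where it stands at 0.585. The FPKM were used as deposited. Of all listed genes, 8.83% were lower past the threshold and 8.38% were higher past it. Past 2-fold, 4 of the 10 genes were lower, against 3.23% of all listed genes. With both libraries rescaled to the same sum of FPKM the median of all genes shifted by -0.26. Of all listed genes, 25.8% were then lower past 1.5-fold, against 8.83% as deposited. Of the genes past 1.5-fold, 75.8% were lower, against 51.3% as deposited. In both, 8 of the 10 genes were lower. These shares are given beside the counts only for scale, since the genes were chosen on the same values. The genes that were lower past 2-fold were RNASE2, SRGN, PRTN3 and AZU1, and those between 1.5-fold and 2-fold were CTSG, PRSS57, MS4A3 and MPO. LYZ and CST7 were higher but short of the threshold. At the median, the 10 genes changed by -0.96, and that of all listed genes was -0.01. In bulk RNA, fewer cells that express a gene and less of its RNA in each cell cannot be told apart.

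**Figure D1:**
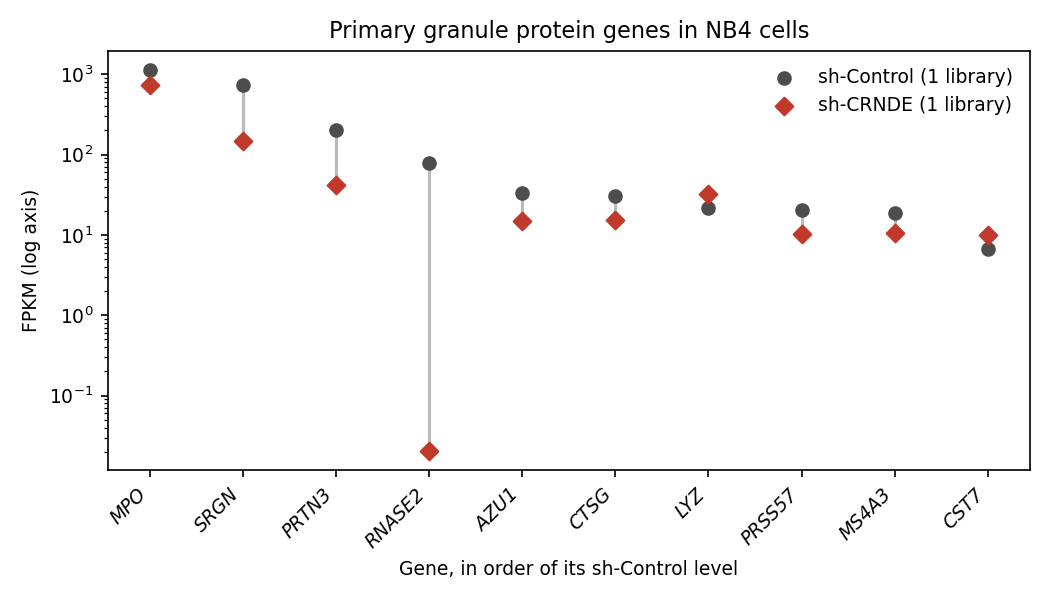
Level of each of the 10 genes in FPKM (log axis) in sh-Control (circles) and sh-CRNDE (diamonds), 1 library each and no error bars, with the genes in order of their sh-Control level. The diamond lies below the circle in 8 genes and above it in LYZ and CST7, and the longest line is that of RNASE2, from 78.3 to 0.0203 FPKM.

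The 10 genes together made up a smaller part of the measured RNA in sh-CRNDE. Their FPKM values summed to 2286 in sh-Control and to 1019 in sh-CRNDE, which is 44.6% of the control sum. As a share of all FPKM, the sum was 1.62% in sh-Control and 0.598% in sh-CRNDE. MT-RNR2, a mitochondrial rRNA gene listed at 0 in sh-Control and as the highest gene in sh-CRNDE, adds to the total of sh-CRNDE, and without it the share was 0.714%. MPO and SRGN supplied most of the sum, 82.0% of it in sh-Control and 86.8% in sh-CRNDE. MPO alone made up 49.7% of the sum in sh-Control and 72.4% in sh-CRNDE, and SRGN 32.4% and 14.4%, so what was left in sh-CRNDE was mostly MPO. A mean level of 10 FPKM or more was reached by 9 of the 10 genes, and all 8 that were lower past 1.5-fold were among them. RNASE2 reached it through its sh-Control level alone, 78.3 FPKM against 0.0203 FPKM in sh-CRNDE. At a mean of 10 FPKM or more, 8.22% of 3004 listed genes were lower past 1.5-fold, close to the share over all genes, and the median change was 0.03. With at least 1 FPKM in both libraries, 9 of the 10 genes were left, without RNASE2. Of these 7 were lower past 1.5-fold, against 7.45% of all genes at that level.

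**Figure D2:**
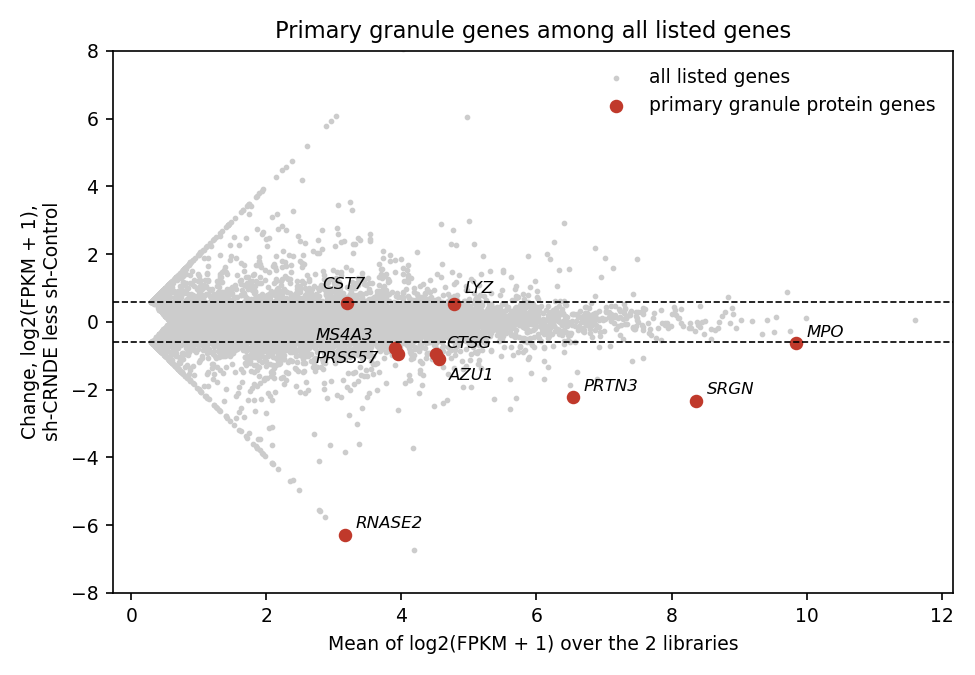
Change of every listed gene (vertical axis, log2(FPKM + 1), sh-CRNDE less sh-Control) against its mean log2(FPKM + 1) over the 2 libraries, with the 10 genes in red and dashed lines at 1.5-fold. SRGN and PRTN3 lie below most genes of their level, MPO lies at the lower line, LYZ and CST7 lie just inside the upper line, and 2 genes with a change above 8 are outside the plot.

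All 4 serine protease genes were lower in sh-CRNDE. PRTN3, CTSG and PRSS57 encode active proteases of the granule, proteinase 3, cathepsin G and neutrophil serine protease 4, while AZU1 encodes azurocidin, a relative that has lost its protease activity and acts as an antimicrobial and chemotactic protein. PRTN3 (ENSG00000196415, chromosome 19, 840999 to 848175, plus strand, GRCh38, 5 exons) measured 200.5 FPKM in control and 41.8 FPKM in knockdown cells, which is 4.79-fold lower. Of all genes, 0.628% had a lower change. AZU1 (ENSG00000172232, chromosome 19, 825097 to 832018, plus strand, 5 exons) measured 33.2 FPKM in control and 15.1 FPKM in knockdown cells, 2.20-fold lower. The other two proteases stood close to it. CTSG (ENSG00000100448, chromosome 14, 24573518 to 24576250, minus strand, 5 exons) was 2.01-fold lower, from 30.8 to 15.3 FPKM. PRSS57 (ENSG00000185198, chromosome 19, 685546 to 695498, minus strand, 5 exons) was 2.04-fold lower, from 20.6 to 10.1 FPKM. The folds of CTSG and PRSS57 are just above 2 on FPKM and just below it on the log2(FPKM + 1) scale, where their changes were -0.964 and -0.959. Summed over the 4 genes, the level in sh-CRNDE was 28.9% of that in sh-Control, 82.3 against 285.1 FPKM. PRTN3 carried most of this sum in sh-Control, and stood 6.52 times higher than CTSG and 6.04 times higher than AZU1. In sh-CRNDE it stood 2.74 times and 2.77 times higher. PRTN3 was thus closer to these genes in sh-CRNDE than in sh-Control, while the ratio of CTSG to PRSS57 was 1.49 in sh-Control and 1.51 in sh-CRNDE.

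The sequences just before the start of these genes are shown because 3 of the 4 protease genes lie on chromosome 19 and the other on chromosome 14, and because transcription factors of the C/EBP, MYB, RUNX and ETS (PU.1) families are known to drive primary granule genes from their proximal promoters. RefSeq (GRCh38.p14) gave a promoter for 6 of the 10 genes, PRTN3, CTSG, PRSS57, AZU1, RNASE2 and MS4A3. The 250 bases before the start are printed 5′ to 3′ on the strand of the gene for PRTN3 (chr19:840749-840998), AZU1 (chr19:827587-827836), CTSG (chr14:24576251-24576500) and RNASE2 (chr14:20955237-20955486), the last as the gene with the lowest change. The RefSeq start of AZU1 lies inside the span given for the gene above. Capitals mark every match, on either strand, to the letters searched, which were TTNNGNAA for C/EBP, GAGGAA for PU.1, TGTGGT and TGCGGT for RUNX, AACTG and AACGG for MYB, and TATAAA for a TATA box.
PRTN3: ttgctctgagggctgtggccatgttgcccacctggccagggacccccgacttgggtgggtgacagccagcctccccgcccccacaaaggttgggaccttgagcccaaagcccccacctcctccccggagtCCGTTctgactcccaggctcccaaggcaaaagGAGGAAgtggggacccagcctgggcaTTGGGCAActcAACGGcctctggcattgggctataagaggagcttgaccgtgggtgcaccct
AZU1: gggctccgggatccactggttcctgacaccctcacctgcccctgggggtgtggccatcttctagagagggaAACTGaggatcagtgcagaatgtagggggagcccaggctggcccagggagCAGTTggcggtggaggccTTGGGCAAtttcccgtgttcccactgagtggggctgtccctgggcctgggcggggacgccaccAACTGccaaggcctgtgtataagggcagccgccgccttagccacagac
CTSG: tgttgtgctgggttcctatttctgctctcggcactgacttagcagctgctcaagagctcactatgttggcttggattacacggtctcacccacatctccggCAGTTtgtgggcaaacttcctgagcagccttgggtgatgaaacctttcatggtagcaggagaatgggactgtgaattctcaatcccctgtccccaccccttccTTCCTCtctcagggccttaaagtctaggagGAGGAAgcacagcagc
RNASE2: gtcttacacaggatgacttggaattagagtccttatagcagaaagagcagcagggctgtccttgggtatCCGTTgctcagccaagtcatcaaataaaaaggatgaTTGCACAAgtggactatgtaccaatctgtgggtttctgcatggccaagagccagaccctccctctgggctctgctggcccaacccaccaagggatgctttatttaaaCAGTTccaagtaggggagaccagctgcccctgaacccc

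A match is a description of the letters and not a binding site. The C/EBP letters were found in 4 of the 6 promoters, PRTN3, AZU1, RNASE2 and MS4A3, against 33.2% of 35116 RefSeq promoters of the same length. PRTN3 and AZU1 hold them as the same run, TTGGGCAA, which starts 62 bases before the start of PRTN3 and 111 bases before that of AZU1. This run was picked out after the matches were seen, and 0.769% of all promoters hold it on either strand. The PU.1 letters were found in 2 of the 6 promoters, PRTN3 and CTSG, against 23.6% of all. In PRTN3 they start 88 bases and in CTSG 16 and 46 bases before the start, the latter on the opposite strand. MYB letters of the form AACTG were found in 4 of the 6 promoters, against 34.1% of all, and those of the form AACGG also in 4, against 16.5%. In PRTN3 the AACGG letters begin 51 and 120 bases before the start, the latter on the opposite strand. Matches to different letters overlapped each other in MS4A3 and in none of the 4 printed sequences. The RUNX letters TGTGGT were found in PRSS57 only, against 11.0% of all promoters, and TGCGGT in 0 of the 6, against 5.84%. The TATA box letters were found in 0 of the 6 promoters, against 10.7%.

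MPO, which encodes the heme peroxidase that makes hypochlorous acid from the hydrogen peroxide of the respiratory burst, was the highest of the 10 genes in both libraries. It (ENSG00000005381, chromosome 17, 58269855 to 58280935, minus strand, 12 exons) measured 1135 FPKM in control and 737.6 FPKM in knockdown cells. MPO was 1.54-fold lower, and its change of -0.62 was the smallest of the 8 genes that were lower and lay just past the threshold. With the median change of genes of like GC content taken off, MPO was at -0.43, short of the threshold. GAPDH, a housekeeping gene of a like level, measured 941.6 FPKM in control and 785.3 FPKM in knockdown cells, a change of -0.26. EPX and LPO, the genes for eosinophil peroxidase and lactoperoxidase, lie beside MPO on chromosome 17. EPX was also lower past 1.5-fold, from 28.8 to 13.1 FPKM, a change of -1.08, and LPO was at 0.973 and 0.579 FPKM. The 3 genes are related in sequence, and how reads that match more than one of them were assigned is not given in the sources used here. The folding of MPO in the endoplasmic reticulum needs calreticulin and calnexin. CALR measured 729.4 FPKM in control and 572.3 FPKM in knockdown cells, and CANX was at 132.9 and 153.0 FPKM, with neither past 1.5-fold.

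RNASE2 had the lowest change of the 10 genes. It encodes the eosinophil-derived neurotoxin, a secreted ribonuclease with antiviral activity that is stored in eosinophils and, at lower levels, in the neutrophil lineage. RNASE2 (ENSG00000169385, chromosome 14, 20955487 to 20956436, plus strand) measured 78.3 FPKM in control and 0.0203 FPKM in knockdown cells. Its change was -6.28, and 2 of all 11619 genes had a lower change. Because the level in sh-CRNDE is near 0, a ratio of the levels would depend on the lowest value the quantification gives, and no fold is given. RNASE3, its close paralog for the eosinophil cationic protein, measured 3.02 FPKM in control and 3.69 FPKM in knockdown cells. The sum of both paralogs was 81.3 FPKM in control and 3.71 FPKM in knockdown cells. The part of reads that match both paralogs in these values was not tested. RNASE2 has 2 exons, and 670 of the 720 nucleotides of its canonical transcript (93.1%) lie in one of them. Of the 20 genes with at least 10 FPKM in sh-Control and under 0.1 FPKM in sh-CRNDE, 17 have a single exon and 3, RNASE2, P2RY8 and PPP1R15B, have 2. The reverse, at least 10 FPKM in sh-CRNDE and under 0.1 FPKM in sh-Control, was found in 18 genes, 16 of them with a single exon. Among genes of more than 1 exon and a mean level of 5 FPKM or more, 12.7% of 165 genes with at least 90% of the transcript in one exon were lower past 1.5-fold and 13.3% were higher, against 8.20% and 6.33% of 4060 genes with under 75% in one exon. The part of exon structure in the value of RNASE2 was not tested, and the exon comparison was chosen after the values were seen.

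SRGN was the second highest of the 10 genes in sh-Control and its change was close to that of PRTN3. It encodes serglycin, the proteoglycan core protein whose sulfated chains hold the basic granule proteins. SRGN (ENSG00000122862, chromosome 10, 69088103 to 69104805, plus strand, 3 exons) measured 740.4 FPKM in control and 146.4 FPKM in knockdown cells. It was 5.06-fold lower, a change of -2.33, and 0.525% of all genes had a lower change. Of its canonical transcript, 76.8% lies in one exon. Of the 18 genes listed for the synthesis of the glycosaminoglycan chains on serglycin, 15 were found, of which 3 were lower and 3 higher past 1.5-fold, with a median change of -0.27. The shares over all listed genes were 8.83% lower and 8.38% higher. CHST11, which sulfates chondroitin at position 4, the main modification of serglycin in myeloid cells, had the lowest change. It measured 27.3 FPKM in control and 0.651 FPKM in knockdown cells, a change of -4.10, with 88.4% of its transcript in one of its 3 exons. FAM20B, the kinase that phosphorylates the linker xylose, measured 17.3 FPKM in control and 6.78 FPKM in knockdown cells, a change of -1.23. B4GALT7, which adds the first galactose of the linker, was at 2.34 and 0.902 FPKM, a change of -0.81. The sulfotransferase genes CHST14, of a single exon, and CHST13 went the other way, from 1.16 to 5.65 FPKM and from 1.32 to 3.93 FPKM. B3GALT6, a linker enzyme gene of a single exon, is listed at 0 in control cells and at 1.73 FPKM in knockdown cells. CHSY1, the chain polymerase and the highest of the group in sh-CRNDE, was at 26.7 and 25.1 FPKM, a change of -0.09.

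The remaining 3 genes did not move together. MS4A3, which encodes a four-pass membrane protein of granulocyte and monocyte progenitors and not a soluble granule protein, measured 18.6 FPKM in control and 10.5 FPKM in knockdown cells, a change of -0.77. It (ENSG00000149516, chromosome 11, 60056587 to 60071115, plus strand, 7 exons) was 1.78-fold lower. LYZ, the gene for lysozyme, which cleaves bacterial cell walls and is made by monocytes and by all granule stages of the neutrophil, measured 21.9 FPKM in control and 32.1 FPKM in knockdown cells. The change of LYZ (ENSG00000090382, chromosome 12, 69348381 to 69354234, plus strand, 4 exons) was 0.53, and 9.86% of all genes had a higher change. CST7, the gene for cystatin F, which is sorted to granules and inhibits cysteine cathepsins such as the cathepsin C that activates the granule proteases, measured 6.60 FPKM in control and 10.1 FPKM in knockdown cells. CST7 (ENSG00000077984, chromosome 20, 24949269 to 24959928, plus strand, 4 exons) changed by 0.54. Without the pseudocount, CST7 was 1.52-fold and LYZ 1.47-fold higher in sh-CRNDE, so CST7 stood just past 1.5-fold and LYZ just short of it on FPKM. With a pseudocount of 0.1 the change of CST7 was 0.60, past the threshold.

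The ranks within each library, which do not depend on how a library is scaled, showed the same split. In sh-Control, 3 of the 10 genes were among the 100 highest of the 11619 genes and 9 among the 2000 highest. In sh-CRNDE, 1 was among the 100 highest and 6 among the 2000 highest. MPO ranked 2 in sh-Control and 7 in sh-CRNDE. The gene that ranked above MPO in sh-Control was CH507-513H4.5, and in sh-CRNDE MT-RNR2, CH507-513H4.5, HSP90AA1, EEF1A1, RPS6 and GAPDH ranked above it. SRGN went from rank 6 to rank 120, PRTN3 from 65 to 605, and RNASE2 from 258 to 11459. AZU1 went from 778 to 1982, CTSG from 842 to 1951, PRSS57 from 1381 to 2945 and MS4A3 from 1556 to 2855. LYZ moved up from 1282 to 812 and CST7 from 4200 to 2962. The median rank of the 10 genes was 810 in sh-Control and 1966.5 in sh-CRNDE. Counted over the 11298 genes above 0 in both libraries, MPO ranked 2 and 6 and SRGN 6 and 118.

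**Figure D3:**
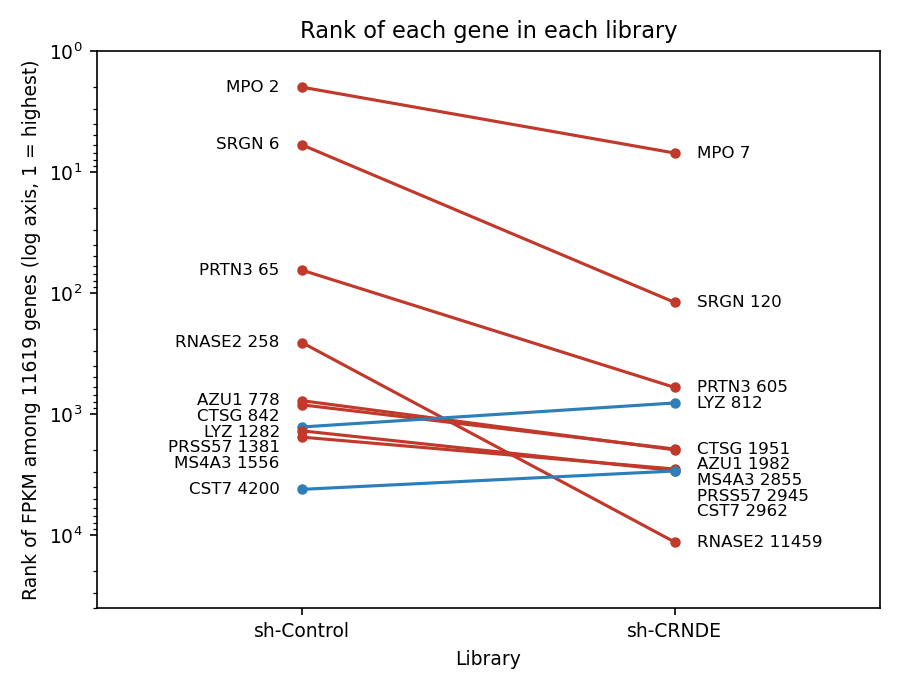
Rank of each of the 10 genes by FPKM among the 11619 listed genes (log axis, 1 is the highest) in sh-Control (left) and sh-CRNDE (right), red where the rank went down in sh-CRNDE and blue where it went up. SRGN goes from 6 to 120 and PRTN3 from 65 to 605, RNASE2 drops to 11459, and LYZ and CST7 run upwards.

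Ratios between pairs of the genes in one library, which are also free of scaling, sorted the genes by the size of their change. Of the 45 pairs, 12 had a ratio that differed by less than 1.5-fold between the libraries. SRGN and PRTN3 kept their proportion, with PRTN3 at 0.271 of SRGN in sh-Control and at 0.286 in sh-CRNDE. AZU1, CTSG, PRSS57 and MS4A3 also stayed in proportion, and among these the ratio of AZU1 to MS4A3 moved most, from 1.78 to 1.44. The ratio of MPO to MS4A3 was 61.0 in sh-Control and 70.5 in sh-CRNDE. LYZ and CST7 kept a ratio of 3.31 in sh-Control and 3.19 in sh-CRNDE. Between these groups, which were formed after the values were seen, the ratios moved. MPO stood 1.53 times above SRGN in sh-Control and 5.04 times above it in sh-CRNDE. PRTN3 stood 9.17 times above LYZ in sh-Control and 1.30 times above it in sh-CRNDE. In 10 of the 45 pairs the order turned. Most of these paired RNASE2 with CTSG, PRSS57, AZU1, LYZ, CST7 or MS4A3, and rest on its 0.0203 FPKM in sh-CRNDE. Among the 36 pairs without RNASE2, AZU1 and CTSG both turned against LYZ. From sh-Control to sh-CRNDE, AZU1 went from 1.52 to 0.470 times the level of LYZ, and CTSG from 1.41 to 0.476 times. The remaining turns were between genes of nearly equal level. CTSG over AZU1 went from 0.926 to 1.01, and PRSS57 over MS4A3 from 1.11 to 0.969.

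**Figure D4:**
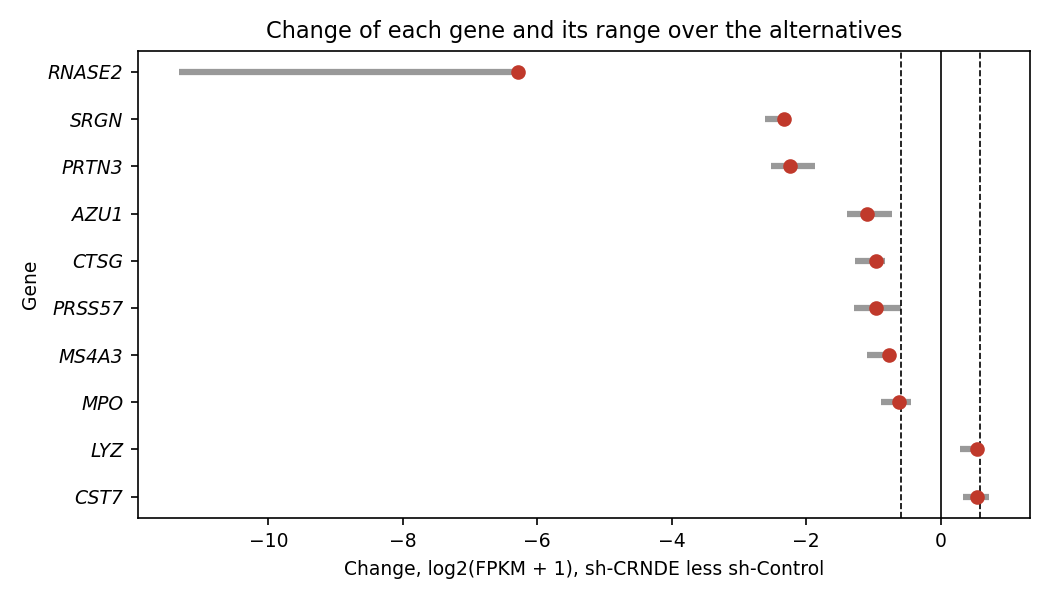
Change of each of the 10 genes (horizontal axis, log2(FPKM + 1), sh-CRNDE less sh-Control, red points) with the lowest and highest value over the alternatives in processing (grey bars, not an error), a solid line at 0 and dashed lines at 1.5-fold. No bar crosses 0, and the bars of MPO and CST7 cross the 1.5-fold lines.

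Of 21 further genes for proteins of the primary granules, 17 were listed, and 2 of these were lower and 0 higher past 1.5-fold, with a median change of -0.25. Over all listed genes, 8.83% were lower and 8.38% higher past it, and these shares stand beside each count of this paragraph. ELANE, the gene for neutrophil elastase that lies next to PRTN3, was not analysed here. Of the 17, among those with a mean of at least 1 FPKM, ARSB, a lysosomal sulfatase, was past 1.5-fold, from 5.31 to 2.62 FPKM. DEFA3, a defensin gene nearly identical to DEFA1, so that its reads may have been shared, was at 1.17 and 0.116 FPKM. CD63, a membrane protein of the granule, was at 22.3 and 16.7 FPKM and CTSD, the gene for cathepsin D, was at 21.3 and 18.0 FPKM, neither past 1.5-fold. Of 15 genes for processing and sorting of granule proteins, all were listed and 0 passed 1.5-fold in either direction, with a median change of -0.02. Among them CTSC, the gene for the cathepsin C named above, measured 28.8 FPKM in control and 24.7 FPKM in knockdown cells. Of 13 genes for inhibitors of granule enzymes, 9 were listed, with 2 lower and 0 higher past 1.5-fold. They were RNH1, whose product binds and blocks ribonucleases, from 12.4 to 7.18 FPKM, and CST3, the gene for cystatin C, from 2.56 to 1.24 FPKM. SERPINB1, an inhibitor of the granule serine proteases, was at 3.73 and 3.59 FPKM. Of 21 genes for proteins of later granules 8 were listed, with 1 lower and 1 higher past 1.5-fold, and LTF and LCN2 were not among them. FCN1, the gene for the lectin ficolin-1, was higher, from 0.726 to 1.93 FPKM, and CYBB, the gene for the catalytic subunit of the NADPH oxidase, was lower, from 42.0 to 26.4 FPKM.

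Of the 15 transcription factors linked to primary granule genes, 5 were higher and 2 lower past 1.5-fold, against 8.38% and 8.83% of all listed genes. CEBPG, a C/EBP family member, measured 0.477 FPKM in control and 12.4 FPKM in knockdown cells, and CBFB, the partner of RUNX1, was at 8.95 and 27.99 FPKM. CEBPE was at 0.748 and 8.75 FPKM. CEBPA and CEBPB have a single exon and are listed at 0 in control cells and at 26.1 and 2.34 FPKM in knockdown cells, and no fold is given. GATA2, a factor of stem and progenitor cells, was lower, from 10.1 to 3.76 FPKM, and CEBPD, also of a single exon, stood at 0.571 FPKM in control cells and at 0 in knockdown cells. CEBPG has 2 exons and 95.0% of its transcript in one of them. The factors with the highest levels in sh-Control, MAZ, MYB, ELF1 and SPI1, were at 76.0, 57.9, 35.2 and 27.99 FPKM there and at 54.5, 43.0, 26.3 and 18.5 FPKM in sh-CRNDE, and none of them was past 1.5-fold on the log2(FPKM + 1) scale.

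PRSS57, AZU1 and PRTN3 lie within 146 kb of each other near the end of chromosome 19, and the genes around them were mostly lower too. Of the 20 other listed genes that start within 300 kb of one of them, 18 were lower in sh-CRNDE, 3 of them past 1.5-fold, and 1 was higher past it. A change below 0, of any size, was also found in 551 of the 790 listed genes of chromosome 19 and in 5906 of all 11619 genes. The median change of the neighbours was -0.33. Over chromosome 19 the median change was -0.17, and 12.8% were lower and 5.06% higher past 1.5-fold. Among the neighbours with a mean of at least 5 FPKM, PLPPR3, which lies next to AZU1, had the lowest change of -0.90, from 23.2 to 11.95 FPKM. HMHA1 was also past 1.5-fold, from 7.96 to 4.54 FPKM. PTBP1, BSG, CDC34, POLRMT, RNF126, MED16, R3HDM4, WDR18, TMEM259, CNN2, POLR2E and GPX4 had changes between -0.58 and -0.24, and ARID3A changed by 0.04. CFD, the gene for complement factor D and a relative of the proteases, measured 3.10 FPKM in control and 1.52 FPKM in knockdown cells. PRTN3, AZU1 and PRSS57 had lower changes than all 20 neighbours, PRSS57 at -0.96 being close to PLPPR3. The 3 genes were chosen on these same values and the neighbours by position, so this order is a description only. The GC content of the canonical transcripts is high here, 66.5% in PRTN3, 67.5% in AZU1, 67.4% in PRSS57 and 64.6% at the median of the neighbours, against 48.3% at the median of all genes. The genes at 1 FPKM or more in both libraries with a GC content as high as that of the 3 genes, 401 genes, had a median change of -0.37. With this median subtracted, PRTN3 was at -1.86, AZU1 at -0.72 and PRSS57 at -0.587. All 3 were past 1.5-fold, but PRSS57 lay almost on the threshold of 0.585. SRGN and MS4A3, with 38.0% and 40.7% GC, are in the part of the range where the median change was above 0, and with that median subtracted were at -2.49 and -0.90.

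**Figure D5:**
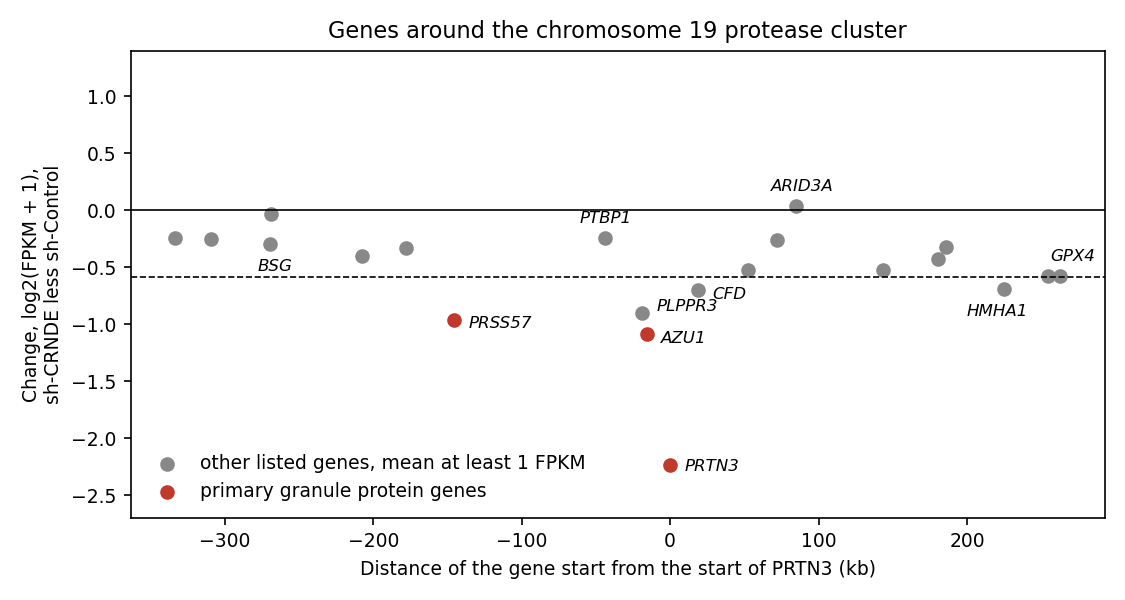
Change of the listed genes whose mean is 1 FPKM or more (vertical axis, log2(FPKM + 1), sh-CRNDE less sh-Control) against the distance of their start from that of PRTN3 in kb, with the 3 protease genes in red, other genes in grey, a solid line at 0 and a dashed line at 1.5-fold lower. Most grey points lie between 0 and the dashed line, and the 3 red points, at -2.23, -1.09 and -0.96, lie below all of them. The red genes were chosen on these same values and the grey ones by position.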

How the data were processed

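RNA sequencing of NB4 cells was analysed from the deposited files, 1 library of sh-CRNDE and 1 of sh-Control, assigned from the titles. The authors deposited FPKM values per gene, made from TruSeq libraries sequenced on an Illumina MiSeq. The submitters' processing notes name fastp 0.20.0, HISAT2 2.0.4, StringTie 1.2.3 and GRCh38. Genes at or below 0.5 FPKM in both libraries are absent from the files. Depth is unknown, so the precision of low values cannot be stated.

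Genes were matched by Ensembl identifier, and 11508 of 11619 were found in GENCODE release 44 (GRCh38), which gave positions, exons and GC content of the canonical transcript. The change was computed as log2(FPKM + 1) of sh-CRNDE less that of sh-Control. Since each group has 1 library, no test was made. The members and the gene lists were chosen with earlier results of these data known. The genes named are the 10 members, CRNDE, GAPDH and ELANE, list genes past 1.5-fold with a mean of at least 1 FPKM, and chromosome 19 neighbours with a mean of at least 5 FPKM, and other genes were chosen after their values were seen. Motifs were searched on both strands of the 250 bases before each RefSeq start. Alternatives were pseudocounts of 0.1 and 0.01, 4 scalings, GC content in 20 bins, a 2-fold threshold and 2 filters on low values. The computation was checked on data with known folds. Python 3.11.15, numpy 2.4.6, pandas 2.3.3 and matplotlib 3.10.9 were used.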

Additional observations from a re-analysis of the deposited data

How the results depend on the processing

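Of 97 values of the 10 genes under 10 alternatives, 0 turned in direction and 88 stayed on their side of the threshold. Part of this was fixed in advance. The 2-fold threshold and the 2 filters on low values leave each change as it was, and a pseudocount cannot turn a direction. Only the 4 scalings and the GC content setting do not fix the direction by how they are built. The largest shift of the median by a scaling was -0.26, and the furthest GC median subtracted from a member was -0.37. The smallest change of the members, 0.53 in LYZ, is larger in size than both, so the lack of turns says little. The 2-fold threshold left 4 genes lower, against 3.23% of all genes, and the median change of the 10 genes at -0.96, short of it. The genes that dropped out were CTSG, PRSS57, MS4A3 and MPO. With GC content subtracted 7 genes were lower, without MPO and with PRSS57 almost on the threshold, against 6.97% of all genes. CST7 was the 1 gene higher past 1.5-fold with a pseudocount of 0.1 (0.60) or 0.01 (0.61), after rescaling without mitochondrial, rRNA and small RNA genes (0.59) and with GC content subtracted (0.72). Of all genes, 13.6%, 14.2%, 12.8% and 7.73% were higher past it under these settings, in that order. RNASE2 ranged from -11.34 to -6.27. It has no value under quantile normalization or with a minimum of 1 FPKM in each library. Each of these settings left 7 genes lower, against 7.2% and 7.45% of the genes kept.

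Against 2000 listed genes past 1.5-fold, 3301 and 3481 were past it with a pseudocount of 0.1 and 0.01, 3128 after rescaling without mitochondrial, rRNA and small RNA genes, 1237 after quantile normalization, 1239 at 1 FPKM in both libraries, 493 at a mean of 10 FPKM and 774 past 2-fold. Rescaling both libraries to the same sum over all genes moved the median of all genes by -0.26. The calls were then 3961, 75.8% of them lower against 51.3% before. Lower past 1.5-fold were 8 members and 25.8% of all genes, against 8.83% of all genes before. Fewer genes were counted in the filtered sets, and the cause of the other shifts was not tested. No paired analysis was possible because each group has 1 library. No library could be left out, and with the depth unknown the error of low values such as that of RNASE2 in sh-CRNDE cannot be bounded.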

Other observations

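Among genes of eosinophil granules, which promyelocyte-like lines can express, PRG2, the gene for major basic protein, measured 109.8 FPKM in control and 72.8 FPKM in knockdown cells, a change of -0.588 that lies just past the 1.5-fold threshold of 0.585. With EPX, PRG2 made up the listed part of 8 eosinophil and basophil markers, and both were lower past 1.5-fold. RNASE6, an antimicrobial ribonuclease on the same chromosome as RNASE2, measured 0.179 FPKM in control and 1.22 FPKM in knockdown cells, and RNASET2 was at 2.25 and 1.82 FPKM. The RNase genes therefore did not share a direction in these libraries, but RNASE3 and RNASET2 did not pass 1.5-fold. RNASE6 had a mean of only 0.70 FPKM, with 91.6% of its transcript in one exon. PRG2 and RNASET2 were chosen after their values were seen.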
